A study of Mus musculus with 22 samples.

Results

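CTCF peaks that persisted through differentiation and lay in distal H3K27ac were examined in G1ER (G1E-ER4) cells. They were the peaks of the 0 h CTCF list that overlapped a peak of the 24 h CTCF list, lay more than 1 kb from every protein-coding transcription start site (TSS), and overlapped a peak in at least 2 of the 10 H3K27ac lists. The rule was met by 2999 of 33193 CTCF peaks at 0 h, which is 9.04% of that list, 9.81% of the 30582 peaks shared with 24 h, and 11.1% of the 26958 shared distal peaks. G1ER cells are a single *Gata1*-null mouse erythroid progenitor line, derived as a subclone of G1E cells, that constitutively expresses GATA1 fused to the ligand-binding domain of the estrogen receptor. All samples carried this transgene and grew with stem cell factor and erythropoietin, and β-estradiol releases GATA1 activity and starts erythroid differentiation. ChIP-seq peak lists were made for H3K4me3 and H3K27ac before treatment (0 h) and after 2, 6, 12, and 24 h of β-estradiol, with 2 replicates at each of the 5 time points, and for CTCF at 0 h and 24 h with 1 list each. The study describes the replicates as independent experiments.

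CTCF is a zinc-finger protein that binds a long GC-rich motif and, together with cohesin, anchors chromatin loops. The orientation of its motif matters for loop formation, and many of its sites in the mouse genome lie in mobile elements. H3K27ac marks active promoters and enhancers, whereas H3K4me3 marks mainly promoters. In a bulk assay, a mark present in fewer cells and a weaker mark in each cell cannot be told apart.

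Members were thus chosen by measured peak positions of CTCF and H3K27ac, so that their H3K27ac and their shared CTCF peaks are no findings, and the borders of the rule were gradual. There were 147 members with a TSS 1001 to 1250 bp away, against 181 otherwise eligible peaks left out at 751 to 1000 bp. The member closest to a TSS lay 1001 bp away and the farthest peak left out lay 998 bp away. H3K27ac was found in exactly 2 lists at 298 members, whereas 600 shared distal peaks had it in 1 list and 23359 in none. At the other end, 1403 members (46.8%) had an H3K27ac peak in all 10 lists. Below, shared distal peaks with H3K27ac in 0 or 1 list (23959) are called unmarked, and shared peaks within 1 kb of a TSS (3624) are called promoter peaks. Distal H3K27ac regions that 2 or more lists held, with no CTCF peak at either time (8901), are called CTCF-free. For CTCF-free regions the 1 kb limit applied to the whole region. For members it applied to the CTCF peak alone, so that their H3K27ac region could hold a TSS.

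To show the DNA beneath these peaks, the best match to a CTCF matrix in the central 500 bp was taken from the mouse genome (GRCm38, mm10) for the first members named below that had a match. Each site is printed 5′ to 3′ in the orientation of the matrix, with the 19 matched bases in capitals and 10 flanking bases on each side in lower case.
*Emilin2* (chr17:71254868-71254906, plus strand): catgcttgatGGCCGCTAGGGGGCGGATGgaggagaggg
*Cd274* (chr19:29370745-29370783, minus strand): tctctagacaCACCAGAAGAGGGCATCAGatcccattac
*Sec14l1* (chr11:117113550-117113588, plus strand): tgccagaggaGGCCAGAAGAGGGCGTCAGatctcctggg
*Zfp106* (chr2:120562445-120562483, minus strand): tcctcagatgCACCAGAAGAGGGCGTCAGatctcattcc
*Fam89b* (chr19:5727992-5728030, minus strand): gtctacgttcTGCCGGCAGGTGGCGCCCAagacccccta
*Ank1* (chr8:23028067-23028105, plus strand): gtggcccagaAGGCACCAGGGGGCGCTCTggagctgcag
*Cpa3* (chr3:20199082-20199120, minus strand): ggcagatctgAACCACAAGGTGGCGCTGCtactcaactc
*Wapl* (chr14:34769123-34769161, minus strand): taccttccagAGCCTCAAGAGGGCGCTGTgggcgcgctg
The *Cd274*, *Sec14l1*, and *Zfp106* sites lie in annotated repeats and closely resemble each other. *Cd274* and *Zfp106* differ at 1 of the 19 bases, *Sec14l1* and *Zfp106* at 2, and *Cd274* and *Sec14l1* at 3. The other 5 sites lie outside repeats, and pairs among them differ at 5 to 9 bases.

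A CTCF match was less frequent in the members than in unmarked CTCF peaks. It was found in 1825 of 2999 members (60.9%), 74.3% of unmarked peaks (without the 2000 peaks from which the matrix was learnt), 48.2% of promoter peaks, and 1.27% of CTCF-free regions. The cutoff was set so that 5% of windows 2 kb away from shared CTCF peaks passed. A first matrix, learnt from peaks found only at 24 h, was dominated by the repeat-borne form of the site. It matched 32.0% of members, 38.7% of unmarked peaks, and 20.9% of promoter peaks, with 76.1% of the matches in members in repeats. Both matrices matched 942 members, at the same position within 3 bases in 907.

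The source of the sequence varied with CTCF peak score more than its presence did. From the lowest to the highest 25% of the 0 h list, 58.4%, 57.4%, 60.4%, and 64.0% of members had a match. The share of these matches lying in a repeat was 79.4%, 59.1%, 34.5%, and 20.2%. In unmarked peaks the share in repeats went from 64.8% to 22.8%, so the low-scoring members held the higher share of repeat-borne sites. These are shares of peaks of 1 list and carry no replicate error.

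**Figure D1:**
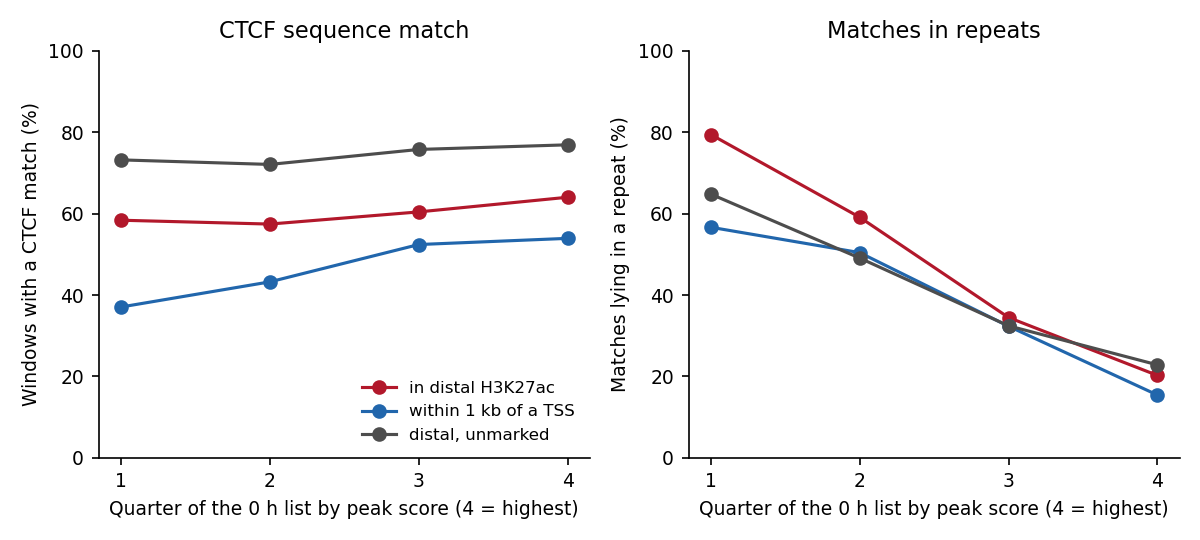
Percentage of central 500-bp windows with a CTCF matrix match (left) and percentage of those matches lying in an annotated repeat (right), for shared CTCF peaks grouped into 4 equal parts of the 0 h list by score. In distal H3K27ac, the match share ranged from 57.4% to 64.0%, while the share of matches in repeats went from 79.4% to 20.2%.

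Short motifs of other factors were counted on both strands in the same windows. The GATA motif, bound by GATA1 and GATA2 and taken as GATA after an A or a T and before an A or a G, was present in 54.5% of members. It was present in 57.8% of windows 2 kb beside the members, 58.1% of unmarked peaks, 40.2% of promoter peaks, and 72.5% of CTCF-free regions. The same letters in reversed order, which serve as a control of base composition, were found in 46.4% of members and 52.4% of CTCF-free regions. They were in 50.5% of the members' flanks, 52.5% of unmarked peaks, and 36.0% of promoter peaks. Windows of CTCF-free regions were centred on the H3K27ac region, and those of members on the CTCF peak. Among the members the GATA share therefore exceeded its control by far less than in CTCF-free H3K27ac. The RUNX motif TGTGGT was in 40.1% of members and 40.8% of unmarked peaks, against 33.9% of the members' flanks, 30.8% of promoter peaks, and 34.3% of CTCF-free regions. In the same order, the AP-1 motif TGANTCA was in 13.8%, 14.1%, 13.8%, 10.0%, and 18.1%, and the KLF motif CCACACCC in 4.73%, 3.32%, 4.42%, 5.22%, and 5.03%. The matches describe letters in a window, not binding.

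Among the members named below for their H3K27ac, their score, or a listed gene, a GATA motif and a CTCF match lay closest together near *Prss39*, a serine protease gene, and in an intron of *Tmem184a*, which encodes a transmembrane protein. Both stretches are printed on the plus strand, with the GATA motif and the 19-base CTCF match, which is on the minus strand in both, in capitals.
*Prss39* (chr1:34487571-34487625): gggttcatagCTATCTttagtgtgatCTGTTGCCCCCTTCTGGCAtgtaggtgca
*Tmem184a* (chr5:139817480-139817594): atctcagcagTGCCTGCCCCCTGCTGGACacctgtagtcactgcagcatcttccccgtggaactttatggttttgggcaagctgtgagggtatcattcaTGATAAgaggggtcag
The motifs are 10 bases apart near *Prss39* and 70 bases apart in *Tmem184a*.

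Members lay closer to genes than unmarked CTCF peaks or CTCF-free H3K27ac. The median distance to the nearest protein-coding TSS was 13029 bp, against 18841 bp for unmarked peaks and 23246 bp for CTCF-free regions. A CTCF-free region had to lie beyond 1 kb as a whole, so its distance is not fully comparable. By their centres, 1279 members (42.6%) were intronic, 205 (6.84%) exonic, and 1515 (50.5%) intergenic. A TSS of a noncoding gene lay within 1 kb of 287 members (9.57%) and 4.66% of unmarked peaks. Chromosome 11 held the highest number (263), chromosome 17 had the highest share of its shared CTCF peaks among the members after chromosome Y (12.9%), and on chromosome Y 9 of 18 shared peaks were members.

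CTCF peaks in distal H3K27ac scored higher than other shared peaks. Scores are given as percentiles within each list, since scores of different libraries are not comparable. The median percentile at 0 h was 64.2 for members, 60.3 for promoter peaks, and 52.0 for unmarked peaks, and at 24 h it was 74.8, 70.0, and 61.5. The highest 10% of the 0 h list took up 19.4% of members, 16.9% of promoter peaks, and 8.88% of unmarked peaks. Median peak length at 0 h was 863 bp for members and 814 bp for unmarked peaks. With 1 CTCF list per time, these differences have no replicate check.

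**Figure D2:**
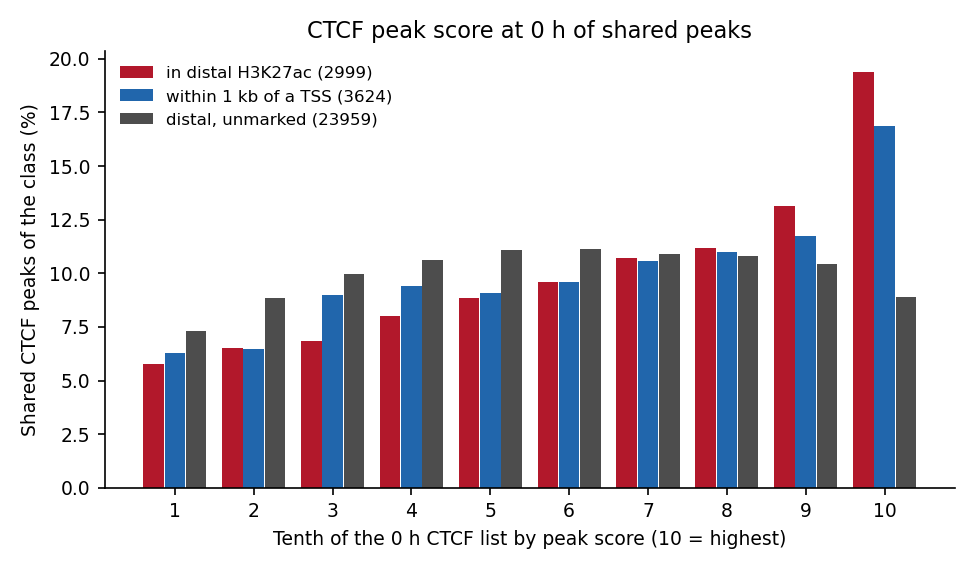
Percentage of the shared CTCF peaks of each class (bars) that fall in each of 10 equal parts of the 0 h CTCF list ranked by peak score, with the number of peaks per class in the key. The highest part holds 19.4% of peaks in distal H3K27ac, 16.9% of promoter peaks, and 8.88% of unmarked peaks.

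The peaks at the very top of this ranking differed from the rest. All of the 10 highest-scoring members had a peak in all 10 H3K27ac and all 10 H3K4me3 lists, and none of them held a CTCF match. The 5 highest lay near *Ly6c2*, near *Rpusd4*, in an intron of *Chl1*, at chr12:3109665-3110493, and at chr1:195241149-195242097, with scores of 3100, 3100, 1898, 2739, and 1669. Their H3K27ac regions were short, with 496 to 2144 bp covered in every list, and none was called at 24 h against 0 h (limma adjusted p from 0.686 to 1). In *Chl1*, for example, the covered length was 496 to 796 bp in the H3K27ac lists and 505 to 883 bp in the H3K4me3 lists. Of the 300 highest-scoring members, 131 (43.7%) had both marks in every list, against 56 of the 300 lowest-scoring (18.7%). The share of bases in annotated repeats had a median of 17.2% in the 10 highest, 14.5% in the 300 highest, 39.1% in the 300 lowest, and 19% in all members. At least 50% of the bases lay in repeats in 3 of the 10 highest, 24% of the 50 highest, 9% of the 300 highest, and 19.4% of all members.

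Both marks were present in every list at 702 members (23.4%). Their median 0 h CTCF percentile was 71.8, and 50.1% held a CTCF match. The other 2297 members had a median percentile of 62.0, 64.1% of them held a match, and 16.7% were in the highest 10% of the 0 h list. The higher score of the members relative to unmarked peaks was thus also present without the 702 peaks.

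The next question was whether H3K27ac on these CTCF peaks changed during differentiation. The share of members with an H3K27ac peak was 74.9% and 72.3% in the lists made before treatment. After 2 h of estradiol it was 72.2% and 75.8%, after 6 h 77.0% and 77.0%, after 12 h 76.9% and 76.8%, and after 24 h 74.99% and 72.2%. The lists at 0 h and 24 h overlapped in range. Spearman's rho with hours was 0.161, and Pearson's r was -0.0237, or 0.707 without the lists at 24 h. These values are given without a test, since the same lists chose the members. CTCF-free regions had a peak in 70.3% ± 0.802 of cases before treatment, 74.4% ± 0.103 after 6 h, and 66.4% ± 3.07 after 24 h (SD, n = 2). H3K27ac lists held 17247 to 18333 peaks, the lowest number in replicate 2 at 24 h.

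The share of members with H3K27ac exceeded that of CTCF-free regions by more late in differentiation than early. The difference was 3.31 ± 1.06 percentage points before treatment, 2.72 ± 0.624 after 2 h, 2.64 ± 0.0561 after 6 h, 4.42 ± 0.0951 after 12 h, and 7.16 ± 1.07 after 24 h (SD, n = 2). As a description without a test, since the H3K27ac lists chose both classes, its rho with hours was 0.763 and its r was 0.896, or 0.580 without the lists at 24 h. With H3K27ac required in at least 5 lists, rho was 0.419. H3K27ac regions that hold members were also longer than CTCF-free ones, with a median of 2766 against 2003 bp, and a member is a point in a region whereas a CTCF-free region counts as a whole. The part of region length in the difference was not tested. With an equal number of peaks taken from every list, rho was 0.812.

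**Figure D3:**
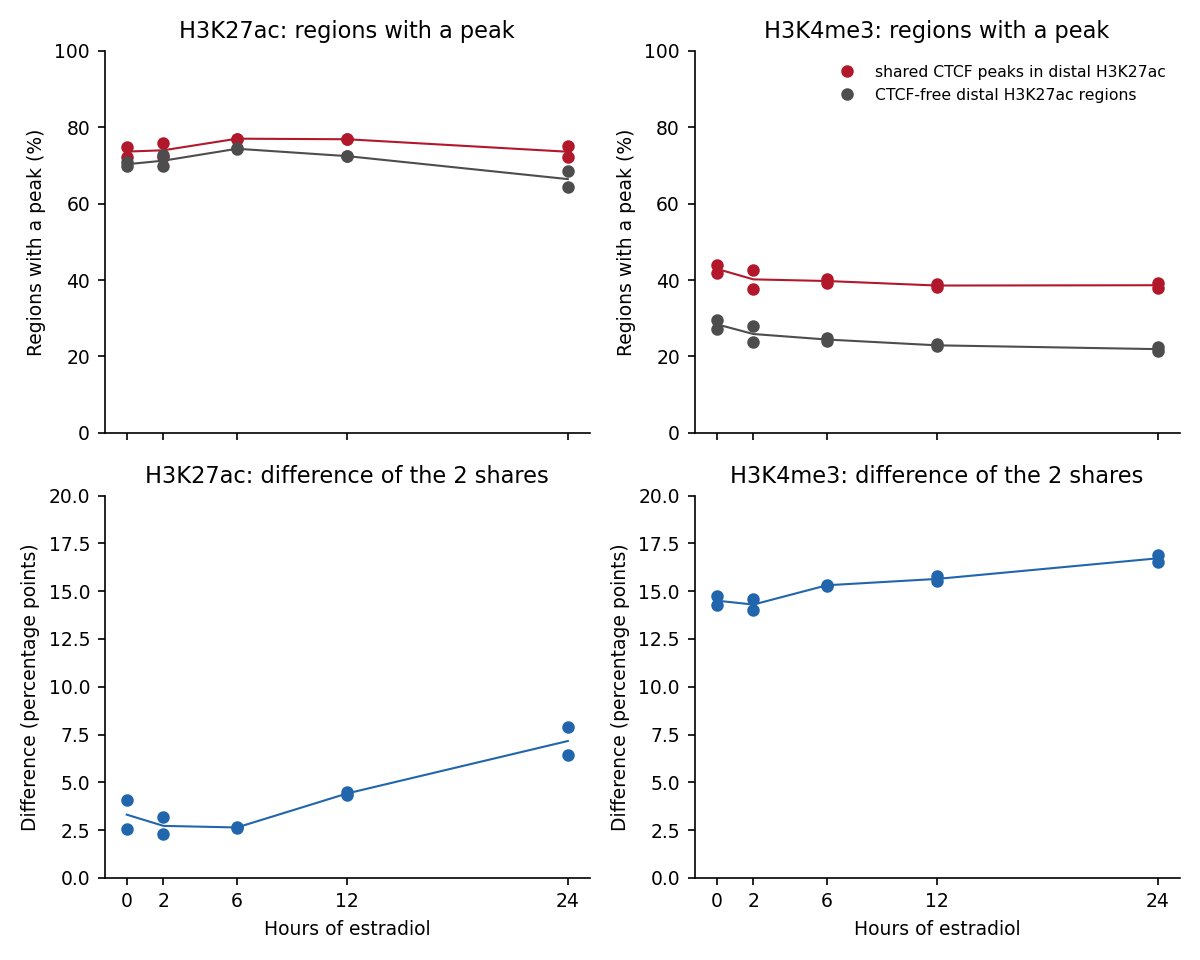
Percentage of regions with an H3K27ac (left) or H3K4me3 (right) peak in each list against hours of estradiol (top), and the difference between shared CTCF peaks in distal H3K27ac and CTCF-free distal H3K27ac regions in percentage points (bottom). Points are single lists (n = 2 per time) and lines join their means. The H3K27ac difference was 3.31 points at 0 h and 7.16 at 24 h, and the H3K4me3 difference 14.5 and 16.7 points.

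H3K4me3 was common on these distal CTCF peaks. It was found in at least 2 lists at 1388 members (46.3%), against 1.40% of unmarked peaks, 30.9% of CTCF-free regions, and 71.3% of promoter peaks. The members fell mostly into opposite states, with 1485 (49.5%) lacking it in every list and 914 (30.5%) having it in all 10. The share was highest within 2 kb of a TSS and lay between 37.6% and 45.1% farther away. It was 67.3% at 1 to 2 kb from a TSS, 44.4% at 2 to 3 kb, 37.6% at 3 to 5 kb, 41.8% at 5 to 20 kb, and 45.1% beyond 20 kb. CTCF-free regions had shares of 27.3% to 32.9% in the same ranges. Their distance was taken from the edge of the whole region and that of members from the CTCF peak, so the ranges are not fully alike. Members with H3K4me3 in all 10 lists had a noncoding TSS within 1 kb in 16.3% of cases and a CTCF match in 51.8%, against 5.32% and 68.1% of members without H3K4me3.

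**Figure D4:**
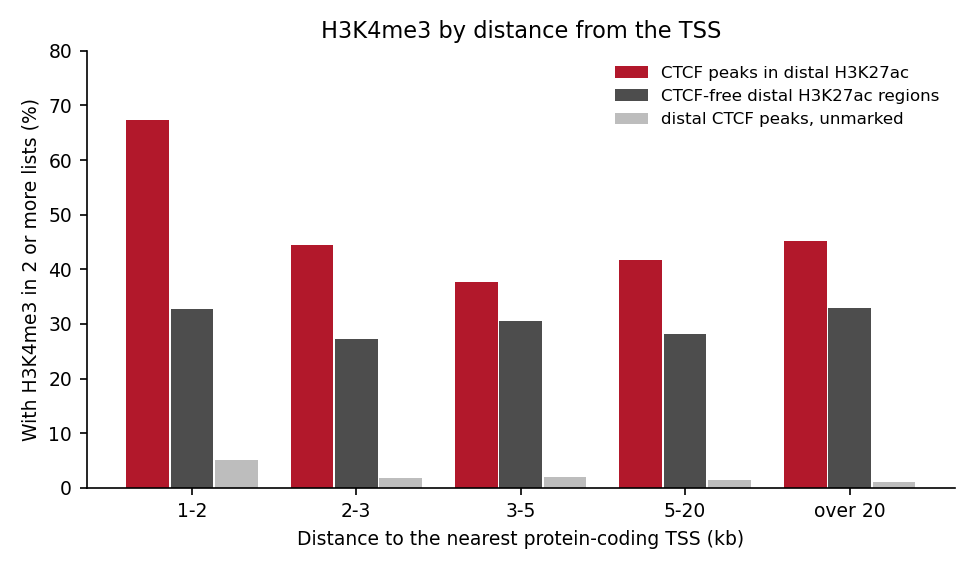
Percentage of regions (bars) with H3K4me3 in at least 2 of 10 lists, by distance to the nearest protein-coding TSS in kb. CTCF peaks in distal H3K27ac lie above CTCF-free regions in every distance range, with 45.1% against 32.9% beyond 20 kb, and unmarked CTCF peaks stay at or below 5.12%.

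H3K4me3 on the members was 42.9% ± 1.41 before treatment, 40.2% ± 3.40 after 2 h, 39.7% ± 0.613 after 6 h, 38.6% ± 0.590 after 12 h, and 38.6% ± 0.849 after 24 h (SD, n = 2). Both lists at 24 h were below both at 0 h, but the trend missed the threshold (rho = -0.615, two-sided permutation test with 100000 resamples, p = 0.0692, Benjamini-Hochberg adjusted p = 0.0923 over 4 trends). Pearson's r was -0.595 (permutation p = 0.0665, adjusted p = 0.0887), and -0.668 when the latest pair of lists was left out (exact permutation p = 0.077). The H3K4me3 lists held 12925 to 14452 peaks, fewer in both at 24 h than in both at 0 h, and with an equal number of the highest-scoring peaks taken from every list rho was -0.197 (permutation p = 0.603). It passed without replicate 2 at 2 h, the list with the lowest share (rho = -0.890, exact permutation adjusted p = 0.00529). Over the same time CTCF-free regions went from 28.4% ± 1.72 to 21.9% ± 0.612. The difference between members and CTCF-free regions rose from 14.5 ± 0.309 to 16.7 ± 0.237 percentage points (rho = 0.911, permutation p = 0.00061, adjusted p = 0.00244). Pearson's r was 0.951 (permutation p = 7e-05, adjusted p = 0.00028), and 0.872 when the latest pair of lists was left out (exact permutation p = 0.00556). At equal numbers of peaks it missed the threshold (rho = 0.714, permutation adjusted p = 0.0545). With a TSS distance over 5 kb it also missed the threshold (rho = 0.591, permutation adjusted p = 0.111). With peaks at or above the median score of the mark, its direction turned (rho = -0.492, permutation p = 0.159). The part of the unlike TSS rules of members and CTCF-free regions in this difference was not tested.

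Single regions were compared by the length of H3K27ac peak that they held. The members lay in 2869 consensus regions, of which 120 held 2 members and 5 held 3. The covered length was compared between 24 h and 0 h with limma on log2(covered bp + 200) over the 21011 regions that 2 or more lists held. Of the 2866 regions tested that held members, 87 (3.04%) were longer and 82 (2.86%) shorter at 24 h at an adjusted p under 0.05, close to 3.3% and 3.02% of all regions tested. Limma assumes normal noise, which regions with a peak either present or absent do not have, and its adjusted p may be too small for them. Of the longer regions 12, and of the shorter ones 9, were held only by the 2 lists of the time at which they were longer, so that they met the filter through that time alone. Among regions in at least 5 lists, 63 with members were longer and 67 shorter. Among CTCF-free regions, 4.22% were longer and 4.86% shorter. The median log2 difference was 0 in regions with members and 0.0067 in all regions. The split depended on single lists, with 48 longer without replicate 1 at 24 h, and 43 and 52 shorter without replicate 1 and replicate 2 at 0 h.

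By presence alone, 113 regions with members (3.94%) were gained, with a peak in both lists at 24 h and neither at 0 h, and 121 (4.22%) were lost. The background was 3.96% gained and 4.83% lost among all regions, and 6.58% and 8.22% among CTCF-free ones. Of the gained regions, 17 were first held by both lists after 2 h, 29 after 6 h, 15 after 12 h, and 52 after 24 h. Of the lost regions, 22 were first absent from both after 2 h, 24 after 6 h, 10 after 12 h, and 65 after 24 h.

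The largest differences were regions that switched between no peak and a wide one, so their log2 differences depend on the added 200 bp and are not fold changes. The deposited H3K27ac lists hold no peak over 8973 bp, and their number falls from 1167 at 7500 to 7999 bp to 209 at 8500 to 8999 bp. A domain wider than that may thus be absent from a list, and the part of this limit in the switches below was not tested. Of all regions with members, 98 (3.42%) had a longest peak of 8 kb or more.

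An intronic CTCF peak of *Mgat4a*, a glycosyltransferase gene, lay in a region with no H3K27ac peak in either list before treatment, 8568 and 8053 bp of it after 2 h, and 8457 and 8060 bp after 24 h. All 8 lists after 0 h held the peak, and the 24 h against 0 h log2 difference was 5.40 ± 0.0619 (SE, limma adjusted p = 1.77e-07). H3K4me3 covered 2989 and 2720 bp there at 0 h and 2290 and 2956 bp at 24 h, without a detectable difference (limma adjusted p = 0.771). An intron of *Emilin2*, which encodes an extracellular matrix glycoprotein, had no H3K27ac peak at 0, 2, or 12 h in either replicate, but 7937 and 8114 bp after 6 h and 8243 and 7499 bp after 24 h (5.33 ± 0.230, limma adjusted p = 0.000138). This on-and-off order has peaks near the upper length limit of the lists. H3K4me3 there was shorter at 24 h by 0.46 on the log2 scale (limma adjusted p = 0.02), a call that was lost when any list of the earliest or latest time was left out (limma adjusted p from 0.0733 to 0.115).

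The CTCF peak in *Cd274*, the gene of the immune checkpoint ligand PD-L1, joined H3K27ac from 2 h onwards. Its region, which also held the *Cd274* TSS 2772 bp from the peak, had none before treatment. It had 5023 and 5853 bp after 2 h, and 5878 and 7935 bp after 24 h (5.14 ± 0.313, limma adjusted p = 0.000326). Beside *Sec14l1*, which encodes a protein with a lipid-binding domain, H3K27ac was found only at 24 h, with 5524 and 5894 bp, while H3K4me3 covered 3099 to 3636 bp in every list. No test of this H3K27ac is given, since the region met the rule and the filter only through the 24 h lists. The region also held the *Sec14l1* TSS, 1417 bp from the CTCF peak. The peak at chr11:11742419-11743385 lies in an intron of *Ikzf1*, the gene of the lymphoid transcription factor Ikaros, 56.0 kb from the TSS. Its region held no H3K27ac before treatment, 2882 and 2968 bp after 2 h, and 6158 and 2901 bp after 24 h (4.47 ± 0.377, limma adjusted p = 0.00108). An exonic peak of *Nol4l* had no H3K27ac before treatment and 4317 and 2867 bp after 24 h (4.22 ± 0.900, limma adjusted p = 0.0454), whose call was lost under 10 of 18 alternatives.

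Among shorter regions, *Snx3*, which encodes a sorting nexin of endosomes, held 11050 and 9526 bp of H3K27ac before treatment, 6089 and 6791 bp after 12 h, and none after 24 h (-5.71 ± 0.419, limma adjusted p = 0.000615). These lengths add up several peaks, of which the longest was 7369 bp. *Zfp106*, a zinc-finger protein gene, held 7253 to 8054 bp in each list up to 6 h and none at 12 or 24 h (-5.28 ± 0.0957, limma adjusted p = 2.3e-06). The region beside *Fam89b* held 5797 to 8143 bp up to 12 h and none at 24 h (-5.09 ± 0.117, limma adjusted p = 6.9e-06). Both CTCF peaks lay close to a TSS, 1133 bp from that of *Zfp106* and 1075 bp from that of *Fam89b*. The *Fam89b* region also held the TSS itself. H3K4me3 was still present at both, with 2376 and 2264 bp at *Zfp106* and 8278 and 2168 bp at *Fam89b* at 24 h.

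The *Noct* and *Fads3* regions held H3K27ac only at 0 h and met the rule and the filter through those lists alone, so that no test of it is given. In an intron of *Noct*, the gene of the circadian protein nocturnin, H3K27ac covered 5796 and 4980 bp at 0 h and was absent from the 8 later lists. The H3K4me3 region that overlapped this CTCF peak was longer at 24 h, 5068 and 4546 bp against 3299 and 3317 bp at 0 h (0.51 ± 0.0744, limma adjusted p = 0.02). This call was lost without either list at 0 h or replicate 1 at 24 h. Beside *Fads3*, a fatty acid desaturase family gene, H3K27ac covered 5288 and 4333 bp at 0 h and none later. The region 10.3 kb from the *Prss39* TSS held 3148 to 8625 bp in the lists up to 12 h and none at 24 h. The CTCF peak itself overlapped H3K27ac in 2 of these 8 lists and met the rule through those alone, so that no test is given here either.

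**Figure D5:**
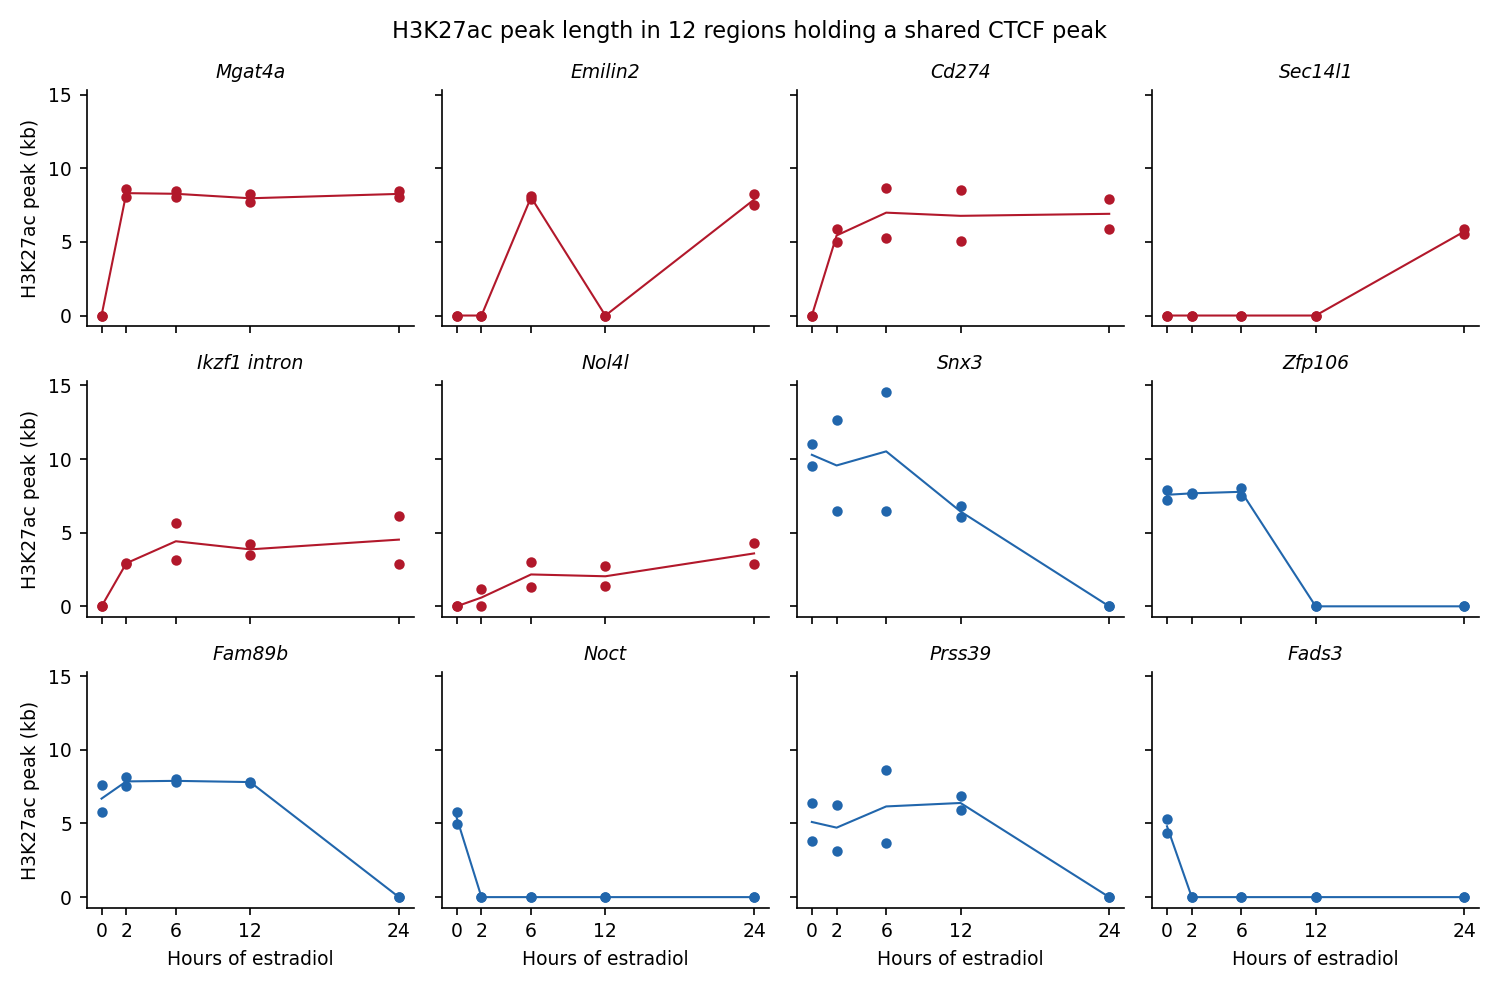
Length of H3K27ac peak in kb against hours of estradiol in the 6 regions with members that became longest (red) and the 6 that became shortest (blue) by 24 h. Points are single lists (n = 2 per time) and lines join their means. All 12 regions have no peak in both lists of either 0 h or 24 h, and *Emilin2* is without a peak again at 12 h.

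Members in called regions were described by features that the fit did not use. Of 91 members in longer regions, 64.8% were intronic and 29.7% intergenic, against 30.2% and 66.3% of 86 in shorter ones and 42.3% and 50.7% of those in regions not called. A CTCF match was present in 70.3%, 50.0%, and 60.9%, and a GATA motif in 63.7%, 59.3%, and 54.0%. The median change of the CTCF percentile from 0 h to 24 h was 9.90, 6.68, and 6.04 points. These shares of small groups are descriptions and were not tested.

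Of 55 erythroid genes, 54 were in the annotation and 17 were the nearest gene, within 50 kb, of 20 members. Of these, 1 lay in a longer and 2 in shorter H3K27ac regions, against 91 (3.04%) and 86 (2.87%) of the 2996 members tested. Their median log2 difference was 0.0089, and 9 had an unadjusted p under 0.05 by limma, against 624 of all members tested. None was called for H3K4me3, where 3 had an unadjusted p under 0.05 by limma, against 165 of the 1432 members tested for that mark. The list, which holds genes that the study had captured as activated, was chosen with earlier results of these data known and is no independent evidence. One of the shorter regions was near *Alad*, which encodes an enzyme of heme synthesis, and held 8786 to 10212 bp in the 6 lists up to 6 h, 2333 and 2085 bp after 12 h, and 3521 and 2690 bp after 24 h (-1.54 ± 0.141, limma adjusted p = 0.00143). The other, near the sodium pump subunit gene *Atp1b2*, held 2699 and 2426 bp at 0 h and none in the 8 later lists, so that it met the filter through the 0 h lists alone.

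Other erythroid members were near *Ank1* (ankyrin), *Mafk* (a small Maf partner of NF-E2), *Urod* (heme synthesis), *Zfpm1* (the GATA1 cofactor FOG1), and *Tmem184a*. H3K27ac at *Ank1* covered 4640 and 4097 bp at 0 h and 4912 and 5411 bp at 24 h (0.23 ± 0.0835, limma adjusted p = 0.176). At *Mafk*, where the CTCF peak lies in an exon of the neighbouring *Tmem184a*, it covered 5539 and 6136 bp at 0 h and 7540 and 8329 bp at 24 h, where both lists were above both 0 h lists, without passing the test (0.43 ± 0.112, limma adjusted p = 0.0839). At *Urod* it covered 3736 and 3631 bp before treatment and 4837 and 4761 bp after 24 h (0.36 ± 0.129, limma adjusted p = 0.171). The *Zfpm1* region was marked only at 2 h (896 and 1112 bp) and 6 h (3139 and 2144 bp). At *Tmem184a* the replicates disagreed at 12 and 24 h, with no peak in replicate 1 and 4677 and 3136 bp in replicate 2.

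Progenitor, mast cell, and myeloid genes had 14 members near 11 of 33 genes. Their median log2 difference was -0.55, against 0 for all members. This list was also chosen with earlier results of these data known, holds genes that the study had captured as repressed, and is no independent evidence. Some of its members, as at *Runx1*, lay in regions without a peak in some lists, where the difference depends on the added 200 bp. Limma called 1 of the 14 shorter and none longer for H3K27ac, and 1 shorter for H3K4me3. For H3K27ac 4 had an unadjusted p under 0.05 by limma, against 624 of the 2996 members tested. For H3K4me3 it was 3, against 165 of the 1432 members tested for that mark. The shorter H3K27ac region was near *Cpa3*, the mast cell carboxypeptidase gene, 42.5 kb from the TSS, and both marks were present on it in every list. H3K27ac covered 3341 and 3298 bp before treatment, 1891 and 2021 bp after 2 h, and 1395 and 1218 bp after 24 h. The 24 h lists were below all others, and the log2 difference was -1.23 ± 0.180 (limma adjusted p = 0.00892, and 0.0526 to 0.0551 when replicate 1 or 2 of 0 h or replicate 2 of 24 h was left out). H3K4me3 there went from 2154 and 2247 bp to 1146 and 1202 bp (-0.80 ± 0.152, limma adjusted p = 0.0536). The member named for *Cd34*, a surface marker of progenitors, lay 37.0 kb from its TSS. It held a TSS of the noncoding gene *A330023F24Rik* and had H3K4me3 in all 10 lists. H3K27ac there covered 2009 to 2517 bp in all lists with no detectable difference (0.06 ± 0.119, limma adjusted p = 0.866). At *Runx1*, the gene of a hematopoietic transcription factor, H3K27ac covered 7116 and 7577 bp at 0 h, and 1 of the 2 lists at 24 h held a peak, of 6783 bp (limma adjusted p = 0.55). That region also held a *Runx1* TSS, 1263 bp from the CTCF peak. At the higher-scoring of 2 members in introns of *Ccnd3*, a cyclin gene, H3K27ac was found in 1 list of 12 h (2346 bp) and 1 of 24 h (2116 bp), without a detectable difference (limma adjusted p = 0.562). Of this list, *Vim*, which encodes the intermediate filament vimentin, had a shorter H3K4me3 region at 24 h (-0.50 ± 0.0866, limma adjusted p = 0.0402), a call lost under 7 of 18 alternatives.

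Genes of CTCF, cohesin, and looping factors had 8 members near 5 of 17 genes, none of them in a region that limma called for either mark. At an unadjusted p under 0.05, 3 passed for H3K27ac and 0 for H3K4me3, against 624 of 2996 and 165 of 1432 among all members tested. The member 31.3 kb from *Wapl*, which encodes the cohesin release factor, lay 471 bp from a TSS of the noncoding gene *Gm49032*. It had H3K4me3 in all 10 lists (1190 to 1430 bp), and short H3K27ac peaks were found in 8 H3K27ac lists (486 to 1010 bp). At *Zfp143*, a zinc-finger factor gene, H3K27ac was found only in replicate 1 at 12 h and 24 h.

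H3K4me3 regions were compared in the same way. Of 1392 tested regions that touched members, 5 (0.359%) were longer and 25 (1.80%) shorter at 24 h by limma, against 0.471% and 1.11% of all 14862 regions tested. These counts fell to 0 longer and 6 shorter without replicate 1 at 0 h and to 2 and 7 without replicate 2 at 0 h, and there were 0 longer and 22 shorter without replicate 1 at 24 h. The largest differences were narrow H3K4me3 peaks that had gone from both lists at 24 h. The region touching the member at chr6:68249918-68250780 went from 1857 and 1681 bp before treatment through 1568 and 1353 bp after 2 h, 968 and 1008 bp after 6 h, and 883 and 976 bp after 12 h to none (-3.30 ± 0.179, limma adjusted p = 0.000275). H3K27ac there covered 2214 and 2258 bp at 0 h and 1592 and 1455 bp at 24 h (-0.50 ± 0.0979, limma adjusted p = 0.032), a call lost under 8 of 19 alternatives.

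At *Gm42906*, H3K4me3 went from 1420 and 1252 bp to none in a like course, whereas H3K27ac covered 1825 to 3147 bp in every list (0.17 ± 0.251, limma adjusted p = 0.766). Near *Mtmr9*, a myotubularin family gene, H3K4me3 covered 1320 and 1252 bp at 0 h and none at 24 h, and H3K27ac remained in 1 of the 2 lists at 24 h. Near *Fth1*, which encodes the ferritin heavy chain, H3K4me3 covered 1063 to 1390 bp in all 8 lists up to 12 h and none at 24 h. Of the 26 members that touched shorter H3K4me3 regions, 5 also lay in shorter H3K27ac regions, against 2.87% of all members tested, and this overlap was not tested.

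Several members could share an H3K27ac region. Of the 5 regions with 3 members, the 3 whose members reached the highest 0 h scores lay near *H2-K1* (a classical MHC class I gene), near *Ostc* (a subunit of oligosaccharyltransferase), and in an intron of *Ank2* (an ankyrin gene). The *Ostc* region held 3165 and 2603 bp at 0 h and 4528 and 4594 bp at 24 h (0.63 ± 0.0967, limma adjusted p = 0.0108), a call lost in a fit to the lists of the earliest and latest times alone (limma adjusted p = 0.0716) and without replicate 2 at 24 h (limma adjusted p = 0.0566). The 3 CTCF matches in it all lay on the minus strand. Among 130 neighbouring pairs of members within 1 region, 54 had a match in both peaks, of which 32 lay on the same strand, 10 faced each other, and 12 faced apart. Of 1824 members with a match in a region, 1048 (57.5%) had it pointing into the region from its nearer edge, and the match lay a median of 458 bp from that edge.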

How the data were processed

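ChIP-seq peak lists of H3K27ac and H3K4me3 (10 each) and CTCF (2) were used. The authors aligned histone reads to mm10 with Bowtie2, kept uniquely mapped reads and called peaks per library with MACS without its model step. How CTCF peaks were called, the MACS version, and whether regions of high background were removed are not given in the sources used here. The labels also name a human build, but 62.5% to 69.1% of the peaks of each H3K4me3 list held a mouse TSS. The deposited score of each peak, at least 50, is the authors' value and was used only for ranks within a list. The lists hold no read counts, so depth and its precision are unknown, and a missing peak can reflect depth.

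TSSs were those of GENCODE M21 protein-coding transcripts of protein-coding genes (GRCm38). Overlap meant 1 bp. Consensus regions were the merged union of the 10 lists of a mark. Trends used two-sided permutation tests (100000 resamples, exact for fewer lists), adjusted over 4 trends; those of H3K27ac, which chose the members, are given without p. Covered length was tested with limma (trend) over all regions in at least 2 lists, with a mean per time point, and called at adjusted p under 0.05. The limma and motif steps were tested on simulated data. Members and gene lists were chosen with earlier results of these data known.

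Named members were, in called regions, the 6 longer and 6 shorter with the largest log2 difference; the 5 with the highest 0 h CTCF score; the 12 highest-scoring near listed genes, 1 per gene; the 4 with the largest called H3K4me3 difference; and the 3 regions with most members (ties by the highest score). Members took the name of the nearest TSS within 50 kb. *Atp1b2*, *Alad*, and *Vim* were named after their values were seen, as called members of a list. Sites were printed for the first 3 named in called longer regions, in called shorter regions, and near listed genes that had a match. The values of 1 member near a listed gene and 1 of these sites are not reported here. The CTCF matrix planned for this, learnt from the 2000 highest-scoring peaks found only at 24 h, was replaced for printing by one learnt from the 2000 highest-scoring unmarked shared peaks, after the first was seen to be repeat-rich. Sequence and repeats came from RefSeq's GRCm38.p6.

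Alternatives were TSS distances of 2.5 and 5 kb, other minimum numbers of lists (1 and 5), 50% overlap, peaks at or above the median score, equal numbers of peaks, Pearson's r, pseudocounts of 50 and 1000 bp, merging within 500 bp, scaling by median peak length, a fit restricted to the earliest and latest lists, a replicate block, and leaving out each list. Software was limma 3.58.1 in R 4.3.3 and, in Python 3.11.15, scipy 1.17.1, pandas 2.3.3, matplotlib 3.10.9, and numpy 2.4.6.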

Additional observations from a re-analysis of the deposited data

Results flagged for a closer look

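The change over time of the share with an H3K4me3 peak differed between shared CTCF peaks in distal H3K27ac and CTCF-free distal H3K27ac regions, by a test of the difference itself. For H3K4me3 the difference rose with hours (rho = 0.911, permutation adjusted p = 0.00244), and r without the lists at 24 h was 0.872 (exact permutation p = 0.00556). At equal numbers of peaks and with a TSS distance over 5 kb it missed the threshold, and with peaks at or above the median score it turned. Groups of 2 lists are too small for a search for single lists that stand apart.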

How the results depend on the processing

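The H3K27ac difference between members and CTCF-free regions, given without a test, had rho = 0.591 with a TSS distance over 5 kb, 0.419 in at least 5 lists, 0.542 with peaks at or above the median score, and 0.678 to 0.890 when single lists were left out. The H3K4me3 rise missed the threshold with a TSS distance over 5 kb (rho = 0.591) and at equal numbers of peaks (rho = 0.714), turned with peaks at or above the median score (rho = -0.492), and ranged from 0.881 to 0.958 without single lists. The H3K4me3 share of members passed with a TSS distance over 2.5 kb (rho = -0.714) and ranged from -0.890 to -0.483 without single lists. The H3K27ac share changed sign as Pearson's r (-0.0237), and rho ranged from 0.017 to 0.517 without single lists.

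With peaks at or above the median score there were 1199 members, 55 called H3K27ac regions with members (of 169), 6 called H3K4me3 regions (of 30), and 115 members in gained or lost regions (of 237). The *Noct* H3K4me3 difference was then -1.85. A fit restricted to the earliest and latest lists called 313 and 68 regions. Without single lists the counts were 132 to 210 for H3K27ac, 6 to 32 for H3K4me3, and 361 to 388 for gained or lost, the last because 1 list meets the rule more easily. The cause of the other changes was not tested. Of the alternatives for the main results, 100 kept direction and side of the threshold, or a count within 1.5 times, whereas 13 moved a count further, 10 lost and 2 gained the threshold, and 2 changed direction.

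Lists of the same replicate number did not deviate together (correlations of -0.029 to 0.017 for H3K27ac and -0.076 to 0.032 for H3K4me3), so the numbers do not pair the lists. With the replicate block, 141 H3K27ac and 19 H3K4me3 regions were called, and the H3K4me3 share and difference had adjusted p of 0.111 and 0.00833 by permutation within replicates, with unchanged calls. Depth is unknown and CTCF had no replicate.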
